A study of Homo sapiens with 18 samples.

Results

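The proteases that cut extracellular matrix and their dedicated inhibitors were followed through 6 states of IMR90 cells, a human embryonic lung fibroblast line. Members were chosen by gene name alone: the matrix metalloproteinases (MMP followed by a number), the ADAMTS proteases (ADAMTS followed by a number) and the tissue inhibitors of metalloproteinases TIMP1 to TIMP4. The name rule found 47 of the 57500 genes in the count table, namely 24 MMP, 19 ADAMTS and 4 TIMP genes. Of these, 32 passed the filter on low counts and were tested (13 MMP, 15 ADAMTS and all 4 TIMP genes), among 16994 genes tested in all.

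The study asked how mitochondria shape the secretory programme of senescent cells, and 18 libraries of polyadenylated RNA were sequenced, 3 in each group. Prol cells were left proliferating. Sen (IR) cells had been made senescent by ionising radiation. The other 4 groups were irradiated cells treated with CCCP, an uncoupler that in cells overexpressing Parkin triggers the removal of mitochondria by mitophagy. Of these, 1 group received nothing more (Sen (IR) + CCCP), 1 was given acetate, 1 was given mitochondrial DNA (mtDNA), and 1 was given both. Per the methods of the study, acetate was renewed repeatedly after CCCP, while mtDNA was transfected late in the culture, so exposure to mtDNA was shorter. The labels name no group given the transfection reagent alone, so mtDNA and transfection cannot be told apart. All groups come from 1 cell line that was engineered to overexpress Parkin, so they describe that line only. The labels do not say whether the 3 libraries of a group came from separate cultures, but the study describes its replicates as independent experiments. The p-values measure the spread between these libraries. In the text, "with CCCP" stands for Sen (IR) + CCCP, and "with acetate", "with mtDNA" and "with both" stand for the 3 groups that received these on top of irradiation and CCCP.

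MMPs are zinc endopeptidases that are made as inactive zymogens. Collagenases such as MMP1 cut the triple helix of fibrillar collagen, stromelysins such as MMP3 and MMP10 cut proteoglycans, fibronectin and other pro-MMPs, gelatinases such as MMP2 cut denatured and basement membrane collagen, and membrane-type MMPs such as MMP14 act at the cell surface, where MMP14 also activates pro-MMP2. ADAMTS proteases carry thrombospondin repeats: a first set cleaves aggrecan and versican, a second (ADAMTS2, ADAMTS3 and ADAMTS14) removes the amino-terminal propeptide of procollagens, and others include ADAMTS13, which cleaves von Willebrand factor. TIMPs bind the active site of these enzymes, TIMP3 being the one that is held in the matrix and also blocks several ADAMTS enzymes. MMP1, MMP3 and related collagenases and stromelysins are textbook components of the senescence-associated secretory phenotype of fibroblasts.

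Levels are given below as TMM-scaled CPM (counts relative to the scaled library total), which compare 1 gene between libraries, or as the deposited TPM where different genes are compared, since TPM is scaled by transcript length. A gene is said to have risen or fallen where edgeR's quasi-likelihood test gave a Benjamini-Hochberg adjusted p under 0.05 over all 16994 genes. Fold changes are log2 values from the fit, with the standard error (SE). Coordinates are those of the GENCODE 44 annotation on GRCh38, the build the reads were aligned to, and all 47 members were found in it.

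A run of 9 MMP genes lay on chromosome 11 between positions 102520508 and 102955732, a span of 435 kb, all on the minus strand, in the order MMP7, MMP20, MMP27, MMP8, MMP10, MMP1, MMP3, MMP12 and MMP13. Only 4 of the 9 had enough counts to be tested: MMP10 (102770502 to 102780628), MMP1 (102789401 to 102798160), MMP3 (102835801 to 102843609) and MMP12 (102862736 to 102874982), which are neighbours. Promoter sequence from RefSeq (250 bases before the start to 50 after it, GRCh38.p14) was matched for 27 of the 47 members. MMP1, MMP3 and MMP12 were not among them. The motif TGANTCA, a loose form of the AP-1 site with any base in the middle, was searched on both strands. It was present in 4 of the 27 (MMP10, MMP7, MMP20 and ADAMTS12), against 9.37% of 27305 genes in the same table. The letters were TGAGTCA in MMP7 and TGAATCA in MMP10, MMP20 and ADAMTS12, and binding of AP-1 was not tested. The motif TATAAA was present in 7 of the 27, against 14.0% of those genes. The promoters of MMP10 and MMP7 held both motifs in nearly the same places. These genes lie in the same cluster with 3 other MMP genes between them. Of those, MMP20 also held both motifs but at other places, TGANTCA at -112 and TATAAA at -72 from the start. The promoters of MMP10 and MMP7 are shown with that of ADAMTS12, the only ADAMTS promoter with TGANTCA. Each run gives the 250 bases before the start, 5′ to 3′ on the gene's strand, with the motifs in capitals (TGANTCA first, then TATAAA where present).
MMP10, chr11:102780629-102780878, minus strand: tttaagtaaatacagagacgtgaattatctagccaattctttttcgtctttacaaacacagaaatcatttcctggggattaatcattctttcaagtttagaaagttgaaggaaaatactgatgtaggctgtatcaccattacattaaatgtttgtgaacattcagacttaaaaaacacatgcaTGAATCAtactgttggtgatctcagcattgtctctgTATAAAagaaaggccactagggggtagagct
MMP7, chr11:102530748-102530997, minus strand: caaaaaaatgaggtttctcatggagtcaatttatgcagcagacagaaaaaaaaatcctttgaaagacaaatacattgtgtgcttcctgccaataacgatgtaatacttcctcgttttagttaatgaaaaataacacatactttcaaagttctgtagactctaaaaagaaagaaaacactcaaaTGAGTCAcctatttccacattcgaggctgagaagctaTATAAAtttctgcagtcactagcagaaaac
ADAMTS12, chr5:33891991-33892240, minus strand: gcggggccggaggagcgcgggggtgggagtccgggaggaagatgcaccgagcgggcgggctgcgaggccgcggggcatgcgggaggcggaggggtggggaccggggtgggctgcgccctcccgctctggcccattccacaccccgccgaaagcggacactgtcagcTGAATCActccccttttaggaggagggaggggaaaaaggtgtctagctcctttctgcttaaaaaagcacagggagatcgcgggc
TGANTCA began at position -67 from the start in both MMP10 and MMP7, and at -84 in ADAMTS12. TATAAA began at -31 in MMP10 and at -30 in MMP7. Of these genes MMP10 and ADAMTS12 were tested, while MMP7 never passed 15 counts in a library. Both were higher in Sen (IR) than in Prol, by log2 fold changes of 4.78 and 0.28. So were 13 of the 32 members tested and 26.7% of all genes tested, and a link between motif and level was not tested.

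Library totals ran from 24624886 to 46224280 counts, with a median of 29620505.5. The 13 protein-coding genes of the mitochondrial genome held 2.62% of the counts in Prol and 2.11% in Sen (IR) on average, and from 0.0461% to 0.138% in the CCCP libraries other than replicate 2 with both, which held 0.237%. The proliferation gene MKI67 averaged 59.1 CPM in Prol, 15.3 in Sen (IR) and 30.4 with CCCP. It averaged 3.19 with acetate, 26.1 with mtDNA and 4.80 with both. CCNA2, also read for cell state, averaged 31.35 CPM in Prol, 19.41 in Sen (IR) and 43.1 with CCCP. It averaged 7.789 with acetate, 37.27 with mtDNA and 6.914 with both, so it was above Prol with CCCP and with mtDNA. LMNB1 averaged 24.04 CPM in Prol, 8.521 in Sen (IR) and 13.28 with CCCP. It averaged 2.913 with acetate, 12.8 with mtDNA and 3.316 with both. These genes moved with several of the groups compared below, and their part in the results was not tested. The cell cycle inhibitor CDKN1A averaged 698 CPM in Prol, 991 in Sen (IR), 1100 with CCCP, 1852 with acetate, 1150 with mtDNA and 1758 with both, so it too moved with the acetate comparisons, and its part in them was not tested. A list of 9 fibroblast markers, none of them at 0, was summed by library. Sums were 37610 to 41350 CPM in Prol, 20700 to 25680 in Sen (IR) and 5174 to 7107 in the CCCP groups. In Prol the largest markers were the collagen genes COL1A1 and COL1A2, averaging 15190 and 13880 CPM. With CCCP these averaged 877.5 and 1342. All 9 markers were lower with CCCP than in Prol, VIM the least in proportion (3820 against 4774). With acetate the sum, VIM and the collagen genes were lower than with CCCP. PDGFRA was higher (439.1 against 203), as were PDGFRB, DCN, LUM and THY1. Lists of 5 epithelial, 4 endothelial and 6 leukocyte markers summed to at most 3.357, 2.675 and 1.21 CPM in any library, with no marker at 0 in every library. In bulk RNA, fewer cells of a type and less RNA per cell cannot be told apart.

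In Sen (IR) cells 4 secreted MMPs of the chromosome 11 cluster stood far above Prol. MMP1, the interstitial collagenase, measured 27.0, 25.8 and 26.4 CPM in the 3 Prol libraries and 517, 526 and 424 CPM in the 3 Sen (IR) libraries, a log2 fold change of 4.21 (SE 0.08, adjusted p = 4.71e-20). MMP3, stromelysin-1, measured 2.19, 2.15 and 2.13 CPM in Prol and 73.8, 76.3 and 69.2 in Sen (IR), a log2 fold change of 5.08 (SE 0.13). The 2 genes did not overlap between the groups, and the spread within a group was small beside the difference. MMP10, stromelysin-2, measured 0.274, 0.185 and 0.234 CPM in Prol and 7.0, 6.14 and 6.06 in Sen (IR), a log2 fold change of 4.78 (SE 0.21). MMP12, the macrophage elastase, measured 0.117, 0.185 and 0.468 CPM in Prol and 5.14, 4.22 and 4.62 in Sen (IR), a log2 fold change of 4.04 (SE 0.31). For MMP12 the size of the change leaned on 1 library: without Prol replicate 3, the highest of its group, it was 4.90.

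The rise did not extend to the family as a whole. Over the 32 genes tested, 13 rose and 12 fell from Prol to Sen (IR), where 26.7% of all genes tested rose and 29.9% fell, and the median log2 fold change was 0.10 for the members and -0.01 for all genes tested. Among the MMPs 6 of 13 rose and 4 fell. MMP15, a membrane-type MMP, rose from 0.978, 1.07 and 0.754 CPM to 4.30, 4.41 and 4.79 (log2 fold change 2.29, SE 0.16), and MMP16, another membrane-type MMP, rose by a log2 fold change of 0.30 (SE 0.09). MMP2, the gelatinase and the most abundant MMP of Prol cells, fell from 926, 956 and 887 CPM to 691, 700.0 and 579.5 (log2 fold change -0.49, SE 0.06). MMP11, stromelysin-3, which differs from the other stromelysins in being activated inside the cell by furin, fell from 10.7, 9.0 and 10.2 CPM to 1.53, 2.03 and 1.34 (log2 fold change -2.62, SE 0.19). MMP17 fell from 4.18, 4.67 and 4.89 CPM to 2.86, 2.15 and 1.58 (log2 fold change -1.03, SE 0.17), and MMP19 fell by 0.71 (SE 0.07) on the log2 scale. MMP14 measured between 596 and 735 CPM in Sen (IR) and between 702 and 737 in Prol, and its log2 fold change of -0.06 (SE 0.07) did not pass the test. MMP24 (0.65) and MMP25 (0.31) did not pass either, though MMP24 did without Prol replicate 3 (0.99).

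**Figure D1:**
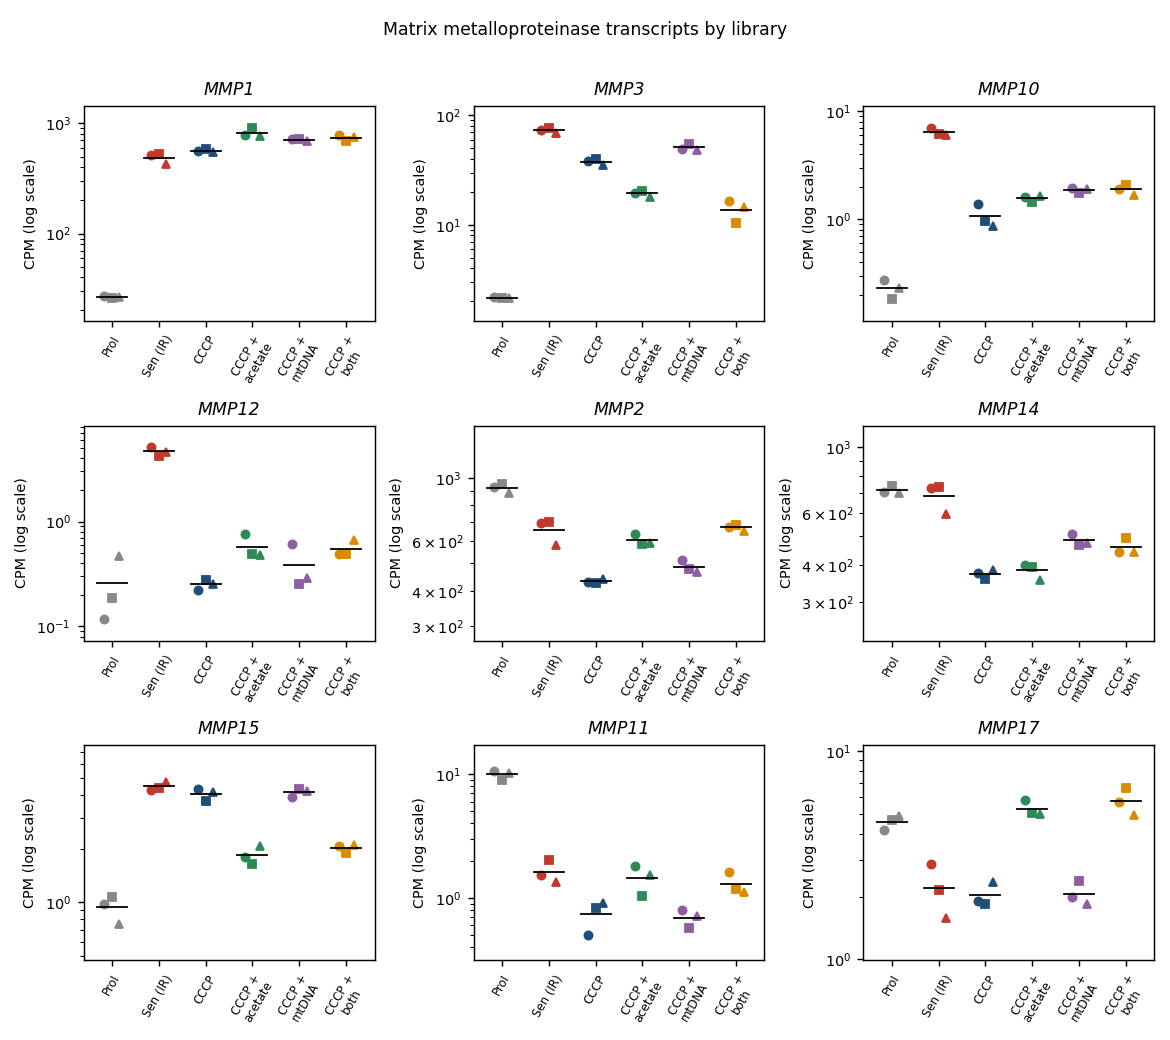
Level of 9 MMP genes in each of the 18 libraries (CPM, log axis) by group; circle, square and triangle are replicates 1, 2 and 3, and the line is the mean of 3. CCCP stands for Sen (IR) + CCCP in the axis labels. MMP1, MMP3, MMP10 and MMP12 sit at the bottom in Prol except MMP12, which overlaps the CCCP libraries, and MMP1 alone of these 4 is no lower with CCCP than in Sen (IR).

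Of the 15 ADAMTS genes tested, 6 rose and 6 fell from Prol to Sen (IR). ADAMTS19, whose substrates are little known, had 11, 2 and 21 counts in Prol and 830, 485 and 469 in Sen (IR), a log2 fold change of 5.59 (SE 0.22), the largest of any member in that comparison. ADAMTS1, a versican- and aggrecan-cleaving protease and the most abundant ADAMTS in every group by TPM, rose from 429, 462 and 433 CPM to 1064, 990.5 and 864 (log2 fold change 1.14, SE 0.07). ADAMTS9, which cleaves aggrecan and versican, rose from 6.42, 7.55 and 7.85 CPM to 16.4, 14.4 and 14.3 (log2 fold change 1.05, SE 0.15). ADAMTS5 (log2 fold change 0.58) and ADAMTS12 (0.28) also rose, and ADAMTS13 passed the test at 0.59 (SE 0.24, adjusted p = 0.0362), a call that was lost when any of 5 of the 6 libraries was left out (0.46 to 0.67) and with DESeq2. The procollagen N-proteinases ADAMTS2 and ADAMTS14 fell. ADAMTS2 went from 119, 135 and 116 CPM to 53.3, 53.1 and 44 (log2 fold change -1.30, SE 0.09). ADAMTS6 had the largest fall of the family, from 29.8, 30.3 and 33.0 CPM to 8.08, 8.17 and 8.30 (log2 fold change -1.93, SE 0.09). ADAMTS7 fell by a log2 fold change of 1.39, ADAMTS10 by 1.21 and ADAMTS15 by 1.15. The 3 genes that did not pass were ADAMTS3, ADAMTS4 and ADAMTS8, of which ADAMTS3 did without Prol replicate 1 (0.41, against 0.22 with it). Of the inhibitors, TIMP1 rose from 369, 366 and 349 CPM to 519, 548 and 389 (log2 fold change 0.43, SE 0.09). TIMP3, the most abundant of them in Prol and Sen (IR), fell from 2739, 2806 and 2695 CPM to 2050, 2051 and 1702 (log2 fold change -0.51, SE 0.12). TIMP4 fell from 2.97, 2.22 and 2.57 CPM to 1.17, 1.19 and 0.861 (log2 fold change -1.25, SE 0.19). No library of these 3 genes overlapped between the groups. TIMP2 gave -0.14 (SE 0.06, adjusted p = 0.0639), which passed the test without Sen (IR) replicate 1 or 2 (-0.18 and -0.19).

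Most of these genes were lower in irradiated cells treated with CCCP, and the only 3 that rose were MMP1, MMP16 and ADAMTS3. Of the 32 genes tested 24 fell and 3 rose from Sen (IR) to Sen (IR) + CCCP, where 31.3% of all genes tested fell and 34.0% rose. The median log2 fold change was -0.92 for the members and 0.03 for all genes tested. By family, 8 of 13 MMPs, 13 of 15 ADAMTS genes and 3 of 4 TIMPs fell. The 24 falls were counted again whichever of the 6 libraries was left out.

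MMP12 returned to 0.223, 0.278 and 0.254 CPM with CCCP (log2 fold change -4.19, SE 0.31), within the range of the Prol libraries, and its difference from Prol was -0.15 (SE 0.46, adjusted p = 0.78). MMP10 fell to 1.39, 0.960 and 0.871 CPM (log2 fold change -2.56, SE 0.16), yet stayed above Prol in every library (log2 fold change 2.21 against Prol, SE 0.27). MMP3 fell to 37.9, 39.5 and 34.9 CPM (log2 fold change -0.96, SE 0.09) and was also still above Prol, by a log2 fold change of 4.12 (SE 0.13). These 3 genes of the cluster therefore kept very different portions of their senescence-linked level. MMP1 measured 561, 581 and 555 CPM with CCCP against 517, 526 and 424 in Sen (IR), a small rise (log2 fold change 0.21, SE 0.07, adjusted p = 0.0121) that rested on Sen (IR) replicate 3 and was 0.12 and not called without it. Over the 2 ends, Prol and Sen (IR) + CCCP, MMP1 differed by a log2 fold change of 4.42 (SE 0.08).

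MMP2 and MMP14, which made up most of the MMP transcripts of Prol cells, fell as well. MMP2 measured 430.3, 428 and 442 CPM with CCCP (log2 fold change -0.60 from Sen (IR), SE 0.06) and MMP14, the membrane-bound activator of pro-MMP2, measured 378, 359.8 and 386 CPM (log2 fold change -0.87, SE 0.07). MMP19, a secreted MMP of stromal cells, fell from 26.3, 27.4 and 23.5 CPM to 8.31, 9.16 and 8.67 (log2 fold change -1.56, SE 0.08), and MMP11 fell by a further 1.12 (SE 0.25) on the log2 scale. MMP16 was the one MMP beside MMP1 that rose, from 9.16, 9.67 and 9.23 CPM to 20.6, 21.7 and 22 (log2 fold change 1.20, SE 0.08). MMP15, MMP17 and MMP24 did not pass the test (log2 fold changes -0.14, -0.16 and -0.48). MMP25 fell, but its libraries held 17, 10 and 18 counts in Sen (IR) and 1, 8 and 1 with CCCP, and its log2 fold change of -2.23 (SE 0.58) became -3.72 without CCCP replicate 2.

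Among the ADAMTS genes the steepest falls were those of ADAMTS8, an aggrecan-cleaving protease that is abundant in lung, and of ADAMTS19. ADAMTS8 measured 52.3, 51.3 and 37.1 CPM in Sen (IR) and 2.65, 2.40 and 3.70 with CCCP (log2 fold change -4.04, SE 0.19), although it had not differed detectably between Prol and Sen (IR) (-0.02, SE 0.14). ADAMTS19 measured 19.5, 18.6 and 16.1 CPM and then 1.48, 1.59 and 1.74 (log2 fold change -3.50, SE 0.17). ADAMTS12, which degrades cartilage oligomeric matrix protein, fell from 209, 228 and 199 CPM to 39.9, 42.6 and 38.2 (log2 fold change -2.40, SE 0.08). ADAMTS9 fell to 2.79, 2.60 and 2.87 CPM, below Prol as well (log2 fold change -2.46 from Sen (IR), SE 0.16). ADAMTS2 fell to 13.4, 12.8 and 13.3 CPM (log2 fold change -1.93, SE 0.10), and ADAMTS14 fell from 1.69, 1.30 and 2.41 CPM to 0.390, 0.581 and 0.581 (log2 fold change -1.80, SE 0.29). Both of these procollagen N-proteinases had already been lower in Sen (IR) than in Prol. ADAMTS1 measured 461, 461 and 442 CPM with CCCP (log2 fold change -1.10, SE 0.07), overlapping the Prol libraries. ADAMTS5, a major aggrecanase of cartilage, moved little (log2 fold change -0.19, SE 0.06), and ADAMTS3, the procollagen II N-proteinase, was the only ADAMTS gene that rose, from 2.98, 2.57 and 2.93 CPM to 4.26, 4.59 and 4.68 (log2 fold change 0.66, SE 0.14). Its 2 relatives among the procollagen N-proteinases therefore moved the other way. ADAMTS4 did not pass the test.

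**Figure D2:**
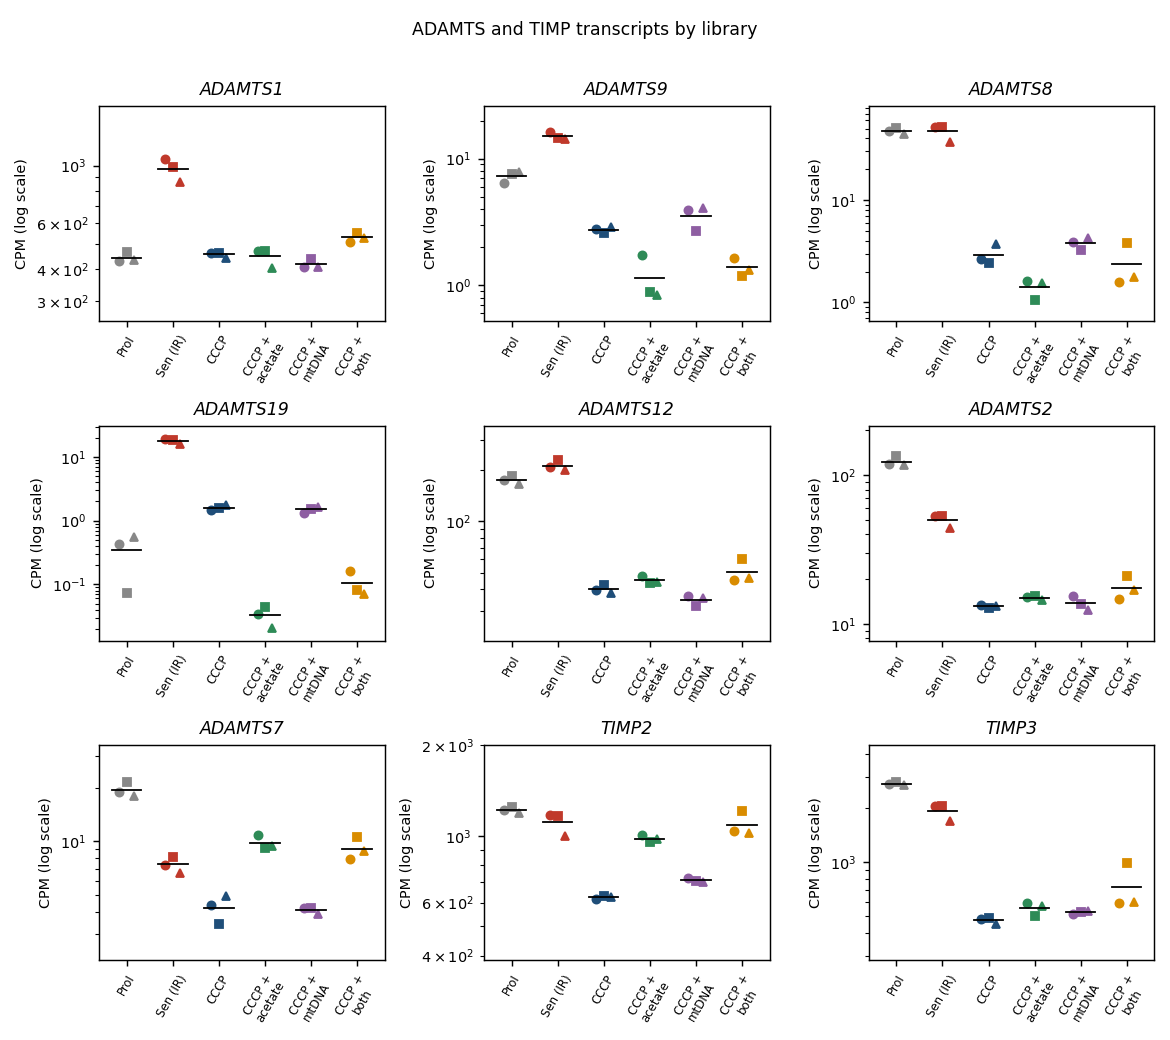
Level of 7 ADAMTS genes, TIMP2 and TIMP3 in each of the 18 libraries (CPM, log axis) by group; circle, square and triangle are replicates 1, 2 and 3, and the line is the mean of 3. ADAMTS8, ADAMTS12 and TIMP3 differ little between Prol and Sen (IR) beside their fall in the 4 groups with CCCP, and replicate 2 with both stands above its group for TIMP3 (985 CPM against 594 and 601).

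TIMP3 fell the most of the inhibitors, from 2050, 2051 and 1702 CPM in Sen (IR) to 479.8, 485 and 452 with CCCP (log2 fold change -2.03, SE 0.13). TIMP1 fell from 519, 548 and 389 CPM to 253, 264 and 269.8 (log2 fold change -0.89, SE 0.09), and TIMP2 fell from 1174, 1166 and 999.6 CPM to 617, 630.4 and 625 (log2 fold change -0.83, SE 0.06). TIMP4, at 1.28, 1.36 and 1.56 CPM with CCCP, gave 0.36 (SE 0.20, adjusted p = 0.113). Set directly against Prol, the CCCP libraries were higher for 8 of the 32 genes and lower for 19, where 35.1% of all genes tested were higher and 34.1% lower. The 8 were MMP1, MMP3, MMP10, MMP15, MMP16, ADAMTS3, ADAMTS5 and ADAMTS19, and all 4 TIMPs were among the 19. ADAMTS4 passed as lower too without CCCP replicate 3 (-0.79, against -0.51 with it), and MMP25, at -1.92, was -3.42 without CCCP replicate 2.

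**Figure D3:**
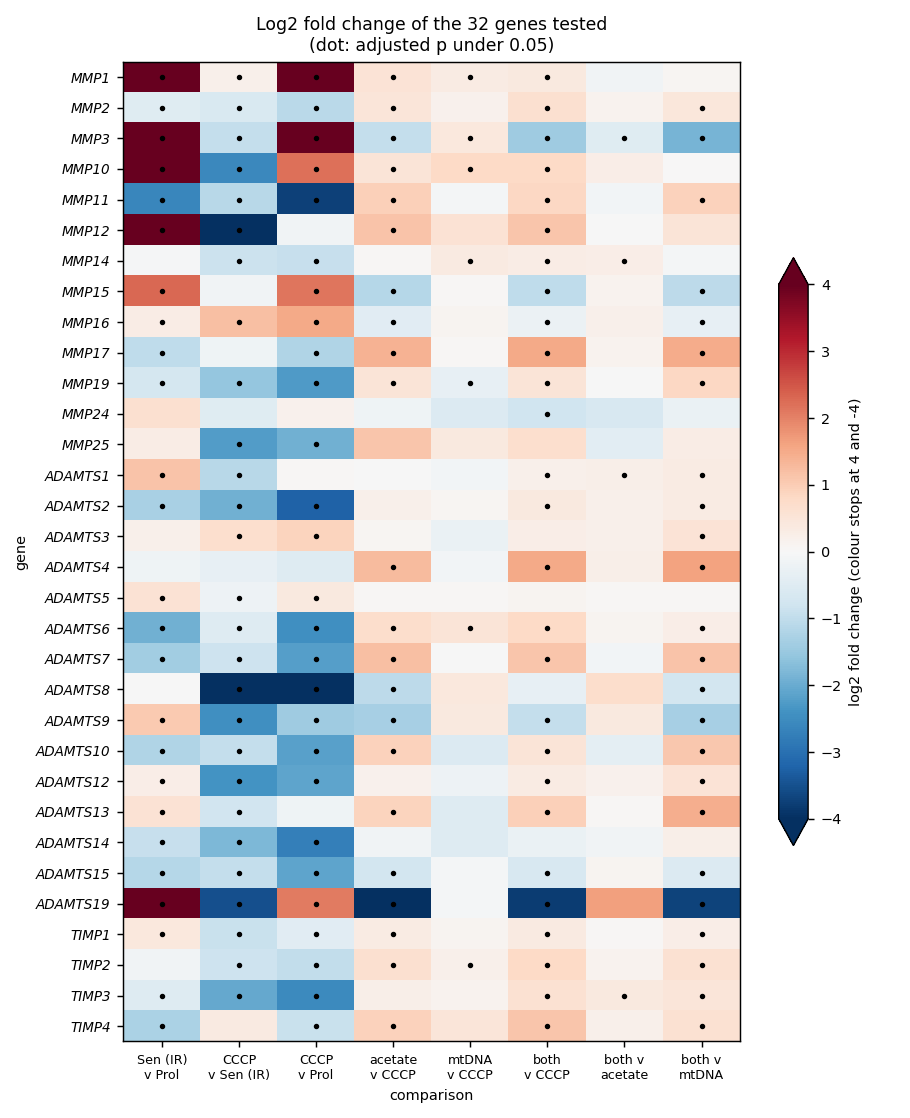
Log2 fold change of the 32 genes tested (rows) in 8 comparisons (columns; CCCP stands for Sen (IR) + CCCP, and acetate, mtDNA and both for that group with the named addition), red for higher and blue for lower, with a dot where the adjusted p was under 0.05. The second column is blue for 24 genes with a dot, and the mtDNA columns hold 7 dots without acetate and 4 with it.

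The balance between proteases and inhibitors was followed on the TPM scale, which allows sums over genes. The 24 MMP genes summed to 1416 ± 68.4 TPM (SD, n = 3) in Prol and 2331 ± 218 in Sen (IR), and the 4 TIMP genes summed to 3957 ± 158 and 3715 ± 416. The MMP sum divided by the TIMP sum was 0.358 ± 0.00352 in Prol, 0.629 ± 0.0124 in Sen (IR) and 1.26 ± 0.0115 with CCCP. The libraries of these 3 groups did not overlap on this ratio, which does not depend on how the libraries are scaled. The TIMP sum with CCCP was 2059 ± 21.2 TPM and the MMP sum was 2591 ± 16.8. The latter is above Sen (IR) in TPM but below it when TMM-scaled CPM per kilobase were summed instead (2237 against 2708), so no direction is given for the MMP sum from Sen (IR) to CCCP. The make-up of the sum changed. In Prol, MMP2 gave 49.8% and MMP14 42.6% of the MMP sum, with 3.57% from MMP1. In Sen (IR) MMP1 gave 42.4%, and with CCCP 59.4%. Of the TIMP sum, TIMP3 gave 56.8% in Prol, 45.0% in Sen (IR) and 26.7% with CCCP, where TIMP1 became the most abundant at 44.2%. The ADAMTS sum was 472.5 ± 28.2 TPM in Prol, 787.4 ± 62.4 in Sen (IR) and 458 ± 7.12 with CCCP, most of it ADAMTS1 (49.9%, 69.6% and 75.3%). These are sums of transcripts, and no enzyme activity was measured.

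**Figure D4:**
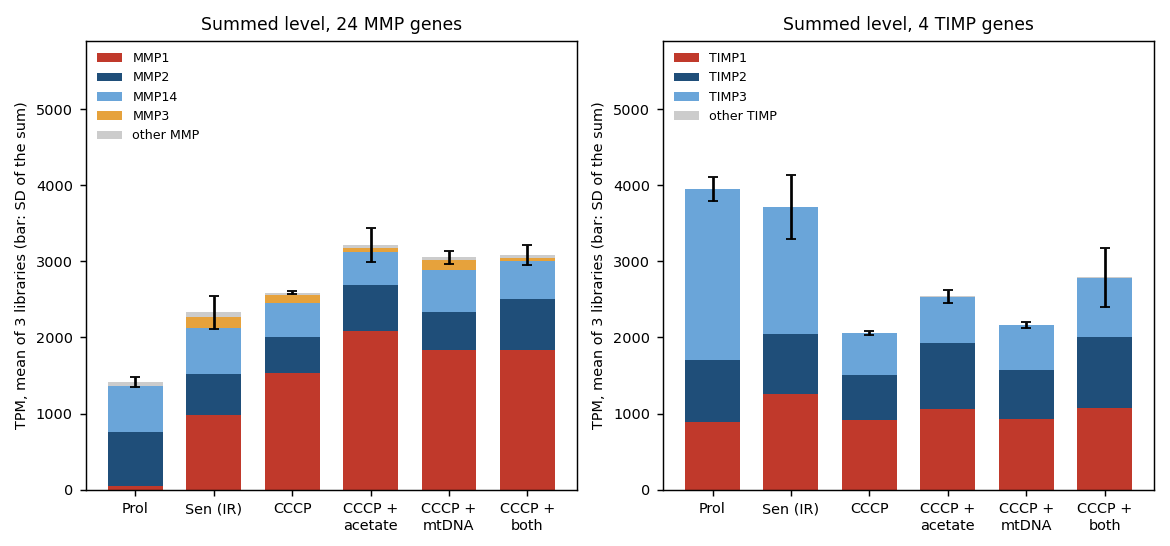
Summed level of the 24 MMP genes (left) and the 4 TIMP genes (right) in TPM by group, split by gene; bars are means of 3 libraries and the error bar is the SD of the sum. MMP1 grows from 3.57% of the MMP bar in Prol to 59.4% with CCCP, while the TIMP3 part of the inhibitor bar shrinks from 56.8% to 26.7%.

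Acetate given on top of CCCP moved the genes in both directions. Of the 32 genes 15 rose and 7 fell against Sen (IR) + CCCP, where 28.8% of all genes tested rose and 28.3% fell, with a median log2 fold change of 0.27 for the members and 0.01 for all genes tested. MMP1 rose to 789, 905 and 765 CPM (log2 fold change 0.54, SE 0.07), above each of the CCCP and Sen (IR) libraries. MMP3 went the other way, from 37.9, 39.5 and 34.9 CPM to 19.7, 20.5 and 17.8 (log2 fold change -0.96, SE 0.10). The 2 genes lie next to each other in the cluster and had risen together in Sen (IR). MMP2 rose by a log2 fold change of 0.48 (SE 0.06), MMP19 by 0.52 (SE 0.08) and MMP11 by 0.94 (SE 0.25). MMP17, a membrane-type MMP anchored by glycosylphosphatidylinositol, rose from 1.90, 1.84 and 2.36 CPM to 5.81, 5.04 and 4.95 (log2 fold change 1.38, SE 0.17). Its lowest library with acetate (4.95 CPM) was just above its highest Prol library (4.89), and these groups were not tested against each other. The other membrane-type MMPs that passed the test fell: MMP15 from 4.32, 3.74 and 4.17 CPM to 1.80, 1.65 and 2.08 (log2 fold change -1.14, SE 0.13), and MMP16 by 0.45 (SE 0.07) on the log2 scale. MMP14 gave 0.04 (SE 0.07) and did not pass. MMP10 and MMP12 passed with log2 fold changes of 0.52 (SE 0.18) and 1.13 (SE 0.39), but neither call was firm: that of MMP10 was lost without CCCP replicate 2 (0.45) or 3 (0.44) or acetate replicate 3 (0.49), and that of MMP12 without CCCP replicate 1 (1.07) or acetate replicate 1 (0.95). Without CCCP replicate 2, MMP25 (2.61, against 1.10 with it) and ADAMTS12 (0.23, against 0.17) passed the test as well.

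Of the ADAMTS genes 5 rose with acetate: ADAMTS4 (log2 fold change 1.26, SE 0.26), ADAMTS7 (1.22, SE 0.13), ADAMTS10 (0.92, SE 0.17), ADAMTS13 (0.90, SE 0.23) and ADAMTS6 (0.70, SE 0.09). ADAMTS7, a protease of cartilage oligomeric matrix protein, went from 4.38, 3.43 and 4.90 CPM to 10.9, 9.16 and 9.34, and the aggrecanase ADAMTS4 went from 0.725, 0.353 and 0.907 CPM to 1.66, 1.81 and 1.20. Neither gene overlapped between the groups. Another 4 fell: ADAMTS19, ADAMTS9 (log2 fold change -1.34, SE 0.21), ADAMTS8 (-1.05, SE 0.27) and ADAMTS15 (-0.75, SE 0.18). ADAMTS19 had 53, 63 and 48 counts with CCCP and 1, 2 and 1 with acetate, a ratio of 48.5 with a 95% counting interval from 18.6 to 180 that covers counting error only. TIMP2 rose from 617, 630.4 and 625 CPM to 1007, 955 and 978 (log2 fold change 0.65, SE 0.06). TIMP4 rose to 3.04, 2.58 and 2.33 CPM (0.91, SE 0.17) and TIMP1 to 338, 314 and 328 CPM (0.32, SE 0.09). TIMP3, at 589, 502 and 572 CPM, gave 0.23 (SE 0.12, adjusted p = 0.121). It was called as higher with only the groups compared (0.22) and without the filter on low counts (0.23). The ratio of the MMP sum to the TIMP sum was 1.21, 1.42 and 1.18 with acetate, a range that takes in the CCCP libraries (1.27, 1.25 and 1.25).

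Mitochondrial DNA transfected on top of CCCP changed fewer genes than acetate did, with a shorter exposure, and the part of exposure time was not tested. Of the 32 genes 6 rose and 1 fell against Sen (IR) + CCCP, where 10.7% of all genes tested rose and 7.40% fell. The 1257 genes behind the latter share became 737 without CCCP replicate 1, 778 without mtDNA replicate 1 and 777 without mtDNA replicate 3. The fold changes were small. MMP10 rose by a log2 fold change of 0.79 (SE 0.18, adjusted p = 0.00425), ADAMTS6 by 0.53 (SE 0.10), MMP3 by 0.44 (SE 0.09), MMP14 by 0.37 (SE 0.07) and MMP1 by 0.33 (SE 0.07). MMP3 measured 49.6, 54.9 and 47.8 CPM and MMP14 511, 468 and 476 CPM with mtDNA, in each case above the 3 CCCP libraries and, for MMP3, below the 3 Sen (IR) libraries. All 4 cluster genes had positive values, MMP12 with 0.59 (SE 0.44, adjusted p = 0.403). TIMP2 passed at 0.19 (SE 0.06, adjusted p = 0.0331), a call that was lost whichever of the 6 libraries was left out (0.19 to 0.21). MMP19 fell by 0.33 (SE 0.09) on the log2 scale, which was 0.28 without CCCP replicate 2 and 0.24 without mtDNA replicate 2, neither past the threshold. Without 1 library, 3 genes passed that had not: ADAMTS9 (0.55) and ADAMTS13 (-0.95) without mtDNA replicate 2, and MMP2 (0.21) without mtDNA replicate 3. The ratio of the MMP sum to the TIMP sum was 1.45, 1.38 and 1.39 with mtDNA, above the 3 CCCP libraries.

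With both additions 20 of the 32 genes rose and 7 fell against Sen (IR) + CCCP, where 30.3% of all genes tested rose and 31.4% fell. The comparisons with acetate, with mtDNA and with both share the 3 Sen (IR) + CCCP libraries. MMP3 was lowest with both among the groups given CCCP, at 16.4, 10.3 and 14.5 CPM (log2 fold change -1.43, SE 0.10), and MMP1 measured 778, 691 and 757 CPM (0.39, SE 0.07). All 4 TIMPs rose, TIMP4 by 1.10 (SE 0.17), TIMP2 by 0.80 (SE 0.06), TIMP3 by 0.62 (SE 0.12) and TIMP1 by 0.36 (SE 0.09) on the log2 scale. MMP17 (log2 fold change 1.51), ADAMTS4 (1.51), ADAMTS7 (1.11) and MMP2 (0.63) rose, and MMP15 (-1.01), ADAMTS9 (-0.96) and ADAMTS15 (-0.63) fell. ADAMTS19 had 6, 2 and 2 counts, a ratio of 14.3 below CCCP with a 95% counting interval from 7.57 to 30.3. Calls that were lost without 1 library were those of MMP12 (1.05 without CCCP replicate 1, 0.98 without replicate 3 of the group with both), MMP16 (-0.20 and -0.19 without CCCP replicate 2 or 3, -0.16 without replicate 2 with both), MMP11 (0.64 without CCCP replicate 1, 0.66 without replicate 1 with both), ADAMTS10 (0.47 without replicate 1 with both) and MMP24, which fell by 0.80 and lost its call without any of 5 of the 6 libraries (-0.60 to -0.85). Replicate 2 of the group with both, the library that held more mitochondrial transcripts than the rest of its group, also had the lowest ratio of MMP sum to TIMP sum (0.909, against 1.25 and 1.21). Without it ADAMTS8 passed the test as lower than CCCP (-0.77, against -0.34 with it) and ADAMTS5 as higher (0.21, against 0.10).

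The acetate effect was measured again where mtDNA was present, in libraries that are shared with none of those of the acetate comparison above. There 17 of the 32 genes rose and 7 fell from mtDNA to both, where 27.4% of all genes tested rose and 29.9% fell. Acetate passed the test in both settings for 19 genes, all 19 in the same direction, 12 higher and 7 lower. The 7 were MMP3, MMP15, MMP16, ADAMTS8, ADAMTS9, ADAMTS15 and ADAMTS19. The same holds for nearly all genes: of 8037 genes that passed in both settings, 8007 had the same sign, so the agreement is not particular to these proteases. The log2 fold changes of the 32 genes in the 2 settings gave a Pearson r of 0.929, as a description across genes that come from the same libraries, and of 0.843 over the 16994 genes tested. Among the 32 genes ADAMTS19 is an extreme point, at -5.45 without mtDNA. It rests on 4 counts with acetate and 10 with both, and the r without it was not computed. MMP17 gave 1.38 without and 1.47 with mtDNA, MMP15 gave -1.14 and -1.04, ADAMTS9 gave -1.34 and -1.34, and TIMP2 gave 0.65 and 0.61. From mtDNA to both, ADAMTS13 went from 0.795, 1.33 and 0.484 CPM to 2.59, 2.58 and 1.93 (log2 fold change 1.46, SE 0.25) and ADAMTS4 from 0.651, 0.575 and 0.549 CPM to 1.58, 2.09 and 1.86 (1.62, SE 0.28). The calls of 6 genes in that comparison were lost without 1 library. Without replicate 2 with both these were ADAMTS2 (0.20), ADAMTS6 (0.22) and TIMP1 (0.18), without mtDNA replicate 3 ADAMTS2 (0.27), TIMP1 (0.24) and ADAMTS8 (-0.64), without mtDNA replicate 1 ADAMTS6 (0.23), without mtDNA replicate 2 ADAMTS15 (-0.44), without replicate 1 with both ADAMTS8 (-0.48), ADAMTS15 (-0.51) and MMP11 (0.74), and without replicate 3 with both ADAMTS8 (-0.58) and ADAMTS15 (-0.42). ADAMTS5 passed without replicate 2 with both (0.16, against 0.05 with it).

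**Figure D5:**
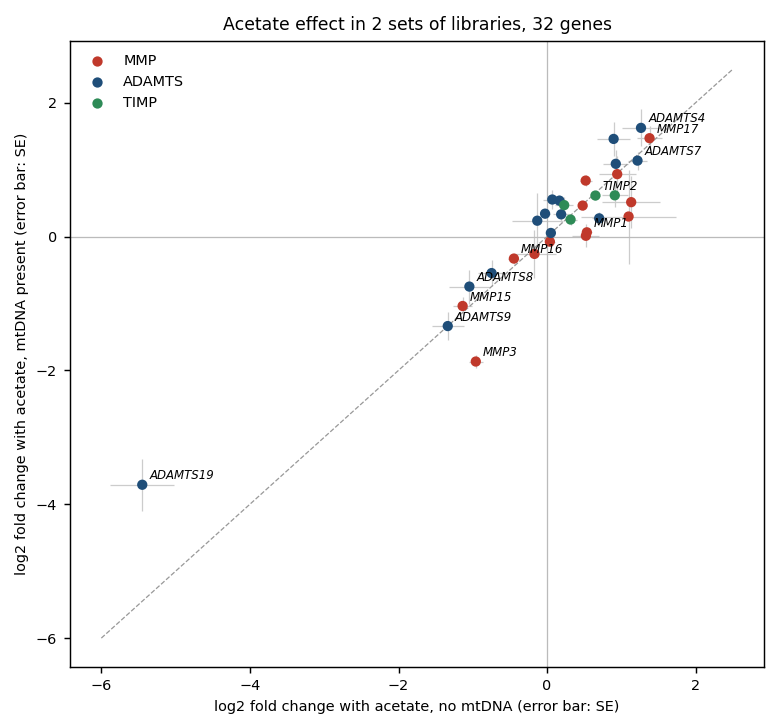
Log2 fold change with acetate in the absence of mtDNA (acetate against Sen (IR) + CCCP, x axis) and in its presence (both against mtDNA, y axis) for the 32 genes tested, with SE bars and a dashed line of equality; the 2 axes share no library. MMP3 lies below the line (-0.96 and -1.87) and MMP1 lies near 0 on the y axis (0.06); the position of ADAMTS19 rests on 4 counts in the acetate libraries.

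The test of the difference between the 2 acetate effects, the interaction of acetate and mtDNA, was passed by 2 members, both lower, and by no member as higher, where 0.583% of all genes tested were lower and 0.0765% higher. Higher genes made up 11.6% of all the interaction calls with edgeR and 51.8% with DESeq2's Wald test. At an unadjusted p under 0.05 edgeR had 3 members lower and 4 higher. DESeq2's Wald test called 1 member higher, ADAMTS1 (0.40, against 0.37 and no call in the main fit). ADAMTS1 was also called higher without the filter, with only the groups compared and with the replicate block (0.37 in each). MMP3 had an interaction of -0.91 (SE 0.14, adjusted p = 0.00252): acetate lowered it by 0.96 without mtDNA and by 1.87 with it, on the log2 scale. Read the other way, mtDNA raised MMP3 by 0.44 without acetate and gave -0.47 (SE 0.11, adjusted p = 0.00463) with it. MMP1 had an interaction of -0.47 (SE 0.10, adjusted p = 0.0254), as acetate raised it by 0.54 without mtDNA and gave 0.06 (SE 0.07, adjusted p = 0.467) with it. The MMP3 interaction was called whichever of the 12 libraries was left out, and the MMP1 interaction was lost without CCCP replicate 1 (-0.47) or 3 (-0.47), acetate replicate 2 (-0.40) or mtDNA replicate 1 (-0.46).

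Between both and acetate alone, 3 members rose and 1 fell, where 6.57% of all genes tested rose and 6.0% fell. These 1116 and 1020 genes became 703 and 538 without acetate replicate 2, and 668 and 628 without acetate replicate 3. Of all the genes called there, 52.2% were higher, a share that became 64.7% with DESeq2 size factors in place of TMM. MMP14 rose by 0.26 (SE 0.07), ADAMTS1 by 0.24 (SE 0.07) and TIMP3 by 0.39 (SE 0.12) on the log2 scale. None of the 3 held throughout: MMP14 (0.21 and 0.21) and ADAMTS1 (0.18 and 0.21) were lost without acetate replicate 3 or replicate 2 with both, and TIMP3, which lost its call without any of 4 libraries, was 0.11 without replicate 2 with both. MMP3, the 1 gene that fell, was no longer called when the fit used these 2 groups alone (-0.48). Genes that passed only without 1 library were MMP16 (0.28) and ADAMTS5 (0.14) without replicate 2 with both, ADAMTS2 (0.33) and ADAMTS8 (0.97) without replicate 1 with both, and ADAMTS9 (0.71) without acetate replicate 1. Only 2 members passed the test for mtDNA both without and with acetate. MMP14 had the same direction in the 2 settings (0.37 and 0.26), and MMP3 had opposite directions. The log2 fold changes with mtDNA in the 2 settings gave a Pearson r of 0.17 for the 32 genes and 0.655 for all genes tested. Of 1311 genes that passed in both settings, 1305 had the same sign.

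Of the 15 members that were not tested, MMP9, the gelatinase typical of leukocytes, had 0 counts in all 18 libraries, which at 3 counts a library allows a level of up to between 0.063 and 0.123 CPM. Another 4 (MMP20, MMP26, MMP27 and ADAMTS18) never passed 3 counts in a library. The highest count of the others in any library was 4 for MMP21 and ADAMTS17, 5 for MMP23A and ADAMTS16, 6 for MMP13, 8 for MMP28, 11 for MMP8 and ADAMTS20, 15 for MMP7 and 19 for MMP23B. MMP23A and MMP23B are near-identical copies, and uniquely mapped reads can be lost from both. MMP13, the other collagenase of the cluster, had its highest count in Sen (IR), as did MMP7, but neither can be compared at this depth. Strand was taken into account only where libraries were strand-specific, and whether these libraries were is not given in the sources used here. Several members overlap exons of a gene on the other strand: MMP1 shares 223 bases and MMP3 32 bases with WTAPP1, MMP19 shares 821 with TMEM198B, MMP24 shares 806 with MMP24OS, MMP25 shares 1454 with MMP25-AS1, ADAMTS9 shares 174 with ADAMTS9-AS1 and TIMP4 shares 170 with SYN2. If strand was not used, reads from such a stretch cannot be told apart.

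Genes that work with these proteases were read from a list of 43 (activating convertases, the plasminogen system, other inhibitors, cathepsins, ADAM proteases, ADAMTS-like proteins and matrix substrates), of which 38 were tested. From Prol to Sen (IR) 12 rose and 21 fell, where 26.7% of all genes tested rose and 29.9% fell, and the median log2 fold change was -0.29 for the list and -0.01 for all genes tested. The largest changes were those of CTSS and COMP. CTSS, the elastolytic cathepsin S, went from 8.13 ± 0.392 to 31.4 ± 2.17 CPM (SD, n = 3), a log2 fold change of 1.95 (SE 0.11). The cartilage matrix protein COMP (3.18, SE 0.49) was low in both groups, at 0.154 CPM in Prol and 1.34 in Sen (IR). ADAM33, the elastin gene ELN, the convertase PCSK6, the proteoglycan gene VCAN, the laminin gene LAMA2 and the protease inhibitor A2M fell, by log2 fold changes from 1.23 to 1.63.

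With CCCP 31 of these 38 fell and 2 rose against Sen (IR), where 31.3% of all genes tested fell and 34.0% rose, and the median log2 fold change was -0.79 for the list and 0.03 for all genes tested. CTSS fell to 1.63 ± 0.317 CPM (log2 fold change -4.26, SE 0.14). The collagen genes COL3A1, COL1A1 and COL1A2 fell by log2 fold changes of 3.07, 2.95 and 2.75, the protease ADAM19 by 3.08, ADAM33 by 2.71 and COMP by 2.26. With CCCP, ADAM33 and COMP were at only 0.238 and 0.293 CPM, where 3 counts a library are 0.063 to 0.123 CPM. ELN was at 0.402 CPM in Sen (IR) and 0.0168 with CCCP. The 2 that rose were VCAN (1.42, SE 0.05), a substrate of several ADAMTS proteases, and CTSB, the lysosomal cathepsin B (0.17, SE 0.07).

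With acetate 20 of the 38 rose and 6 fell against CCCP, where 28.8% of all genes tested rose and 28.3% fell. The plasminogen activators PLAT and PLAU, whose product plasmin can activate pro-MMPs, rose by log2 fold changes of 1.94 (SE 0.09) and 1.66 (SE 0.07). The ADAMTS-like inhibitor PAPLN rose by 1.68 (SE 0.19), ADAM19 by 1.78 (SE 0.13) and ADAM33 by 3.03 (SE 0.39). ADAM33 started from a low level, 0.238 ± 0.199 CPM with CCCP. COL3A1 (-1.46, SE 0.18) and ADAM12 (-1.22, SE 0.11) were among the 6 that fell. With mtDNA 6 of the 38 rose and 5 fell, none by a log2 fold change of 1 or more. Of all genes tested 10.7% rose and 7.40% fell, and whether the list differs from these shares was not tested. The 5 were COL1A1 (-0.72), COL3A1 (-0.57), COL1A2 (-0.47), ADAM12 (-0.33) and VCAN (-0.20). With both, 23 rose and 8 fell against CCCP, where 30.3% of all genes tested rose and 31.4% fell, with PLAT at 1.88 (SE 0.09) and PLAU at 1.83 (SE 0.07). The interaction of acetate and mtDNA passed the test for 1 gene of the list, VCAN (0.35, SE 0.07), which was higher, as were 0.0765% of all genes tested.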

How the data were processed

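RNA was sequenced from 18 IMR90 libraries, 3 in each of 6 groups. Per the labels and the methods of the study, the authors used Trimmomatic 0.36 for trimming, STAR 2.5.2b for alignment to GRCh38 and featureCounts (Subread 1.5.2) to count uniquely mapped reads on exons. Per the methods, strand-specific libraries were counted with regard to strand; whether these libraries were strand-specific was not given in the sources used here. The authors deposited 1 table of whole counts per gene and 1 of TPM, whose tool was not given. Samples were grouped by the deposited labels. From the counts, edgeR 4.0.16 (R 4.3.3) fitted 6 group means to all 18 libraries (TMM scaling, filterByExpr with a minimum count of 10, quasi-likelihood tests, Benjamini-Hochberg over 16994 genes, threshold 0.05), and TPM were summed by family. The steps were tested on simulated data. Libraries held 24624886 to 46224280 counts (common biological coefficient of variation 0.0644). Same-numbered libraries did not deviate together (r -0.0821 to 0.0917 over 45 pairs), so replicate numbers were not used as a block. Alternatives were DESeq2 1.42.0 (size factors and Wald test), other filters, the compared groups alone, the replicate block, leaving out the mitochondrial genes or 1 library, and TMM-scaled CPM per kilobase for the sums. Members, gene lists and tests were chosen with earlier results of these data known. Values by library were given mainly for members past the threshold with an absolute log2 fold change of at least 1 in any comparison and for the TIMPs, and of the partner list at most 8 genes per comparison past the same limits were named, beside counts of 5 or fewer. Near-identical copies and genes overlapping on the other strand were named as uncertain. Members under the filter were given as counts only.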

Additional observations from a re-analysis of the deposited data

Results flagged for a closer look

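The effect of acetate differed between cells without and with mtDNA for 2 members, by the edgeR interaction test over all genes. MMP3 had an interaction of -0.908 on the log2 scale (adjusted p = 0.00252), with acetate effects of -0.96 without mtDNA and -1.87 with it, and each of the 3 libraries with both lay under each of the 3 with acetate alone. MMP1 had an interaction of -0.473 (adjusted p = 0.0254), with acetate effects of 0.54 and 0.06. That call was lost without CCCP replicate 1 or 3, acetate replicate 2 or mtDNA replicate 1. In the other direction, ADAMTS1 (0.37) was not called in the main fit. It was called higher with DESeq2's Wald test, without the filter, with only the groups compared and with the replicate block. With 3 libraries a group, single libraries were not screened as outliers.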

How the results depend on the processing

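Each of 288 values (32 genes in 9 comparisons) was computed again under 7 other settings and with 1 library left out. No value that passed the test changed sign. Under the other settings 1914 of 1954 values kept their direction and their side of the threshold, 30 became called and 10 lost the call. With 1 library left out, 1845 of 1920 did so, 18 became called and 57 lost the call. The cause of these changes was not tested.

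Counts of genes that moved were these. From CCCP to mtDNA, 6 higher became 3 under a rule of unadjusted DESeq2 p under 0.05 and log2 fold change over 0.5, and 1 lower became 2 without the filter and 3 with only the groups compared. From acetate to both, 3 higher became 5 with DESeq2 size factors and 5 with its Wald test, and 1 lower became 0 with only the groups compared and 0 under the unadjusted DESeq2 rule. From mtDNA to both, 17 higher became 11 under that rule. For the interaction, 0 higher became 1 with the Wald test, 2 without the filter, 1 with only the groups compared and 2 under the unadjusted rule. With the replicate number as a block it became 1 (ADAMTS1, 0.37), and the block also brought in TIMP2 in Sen (IR) against Prol (-0.14) and MMP2 in mtDNA against CCCP (0.16) and changed no other call. With 1 library left out, counts higher and lower ran from 12 to 13 and 12 to 14 for Sen (IR) against Prol, 2 to 3 and 24 to 24 for CCCP against Sen (IR), 8 to 8 and 19 to 21 against Prol, 14 to 16 and 7 to 7 for acetate, 5 to 6 and 0 to 1 for mtDNA, 18 to 21 and 5 to 6 for both against CCCP, 0 to 5 and 1 to 1 for both against acetate, 15 to 17 and 5 to 7 for both against mtDNA, and 0 to 0 and 1 to 2 for the interaction. Over all genes, interaction calls numbered 112, and 284 with the Wald test, 413 without the filter, 622 under the unadjusted rule, and from 55 to 403 with 1 library left out (403 without replicate 2 with both). That rule gave 5709 calls in place of 9628 for Sen (IR) against Prol, 7380 in place of 11088 for CCCP against Sen (IR), 5522 in place of 9709 for acetate, 1758 in place of 3071 for mtDNA, 6460 in place of 10487 for both, 1290 in place of 2136 for both against acetate and 5760 in place of 9748 for both against mtDNA. The calls for both against acetate were 1241 without acetate replicate 2 and 1296 without acetate replicate 3.

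In TMM-scaled CPM per kilobase the MMP sum was 1736 in Prol, 2708 in Sen (IR), 2237 with CCCP, 2969 with acetate, 2773 with mtDNA and 2916 with both (in TPM 1416, 2331, 2591, 3213, 3052 and 3081). The TIMP sum was 4857, 4319, 1778, 2349 and 1967 in the first 5 groups (in TPM 3957, 3715, 2059, 2540 and 2165).

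Depth limited the genes near the filter. MMP25, ADAMTS4, MMP24, MMP12 and ADAMTS14 had the fewest counts of those tested, and 15 members could not be tested. The 3 libraries of a group set the error throughout.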
